A study of Mus musculus with 11 samples.

Results

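The genes described here are those of major histocompatibility complex (MHC) class II antigen presentation in mouse acute myeloid leukaemia (AML). The 10 genes were chosen by symbol, from 55487 genes in the count table, and comprise the classical chain genes H2-Aa, H2-Ab1 and H2-Eb1, the invariant chain gene Cd74, the peptide-editor genes H2-DMa, H2-DMb1 and H2-DMb2, the editor's inhibitor genes H2-Oa and H2-Ob, and the coactivator gene Ciita. All 10 passed the filter on low counts, as did 14521 genes of the table.

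RNA was sequenced from bulk AML of 5 Ifnar1 -/- and 6 Ifnar1 +/- samples. All 11 AMLs carried Flt3-ITD, an activating internal duplication of the cytokine receptor gene Flt3, and NHD13, a NUP98-HOXD13 fusion transgene. Ifnar1 encodes a subunit of the type I interferon receptor, so the comparison asks how AML without a functional receptor gene copy differs from AML with 1 copy. Age, strain and sex of the mice and the tissue sampled are not in the labels. No AML with 2 functional copies was analysed here.

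MHC class II molecules are pairs of an alpha and a beta chain that carry peptides from endosomes to the cell surface for recognition by CD4 T cells. In the mouse, H2-Aa and H2-Ab1 encode the 2 chains of I-A, and H2-Eb1 encodes the beta chain of I-E. Cd74 blocks the peptide groove until its remnant is released by H2-DM, and H2-O restrains H2-DM. The product of Ciita is recruited to conserved promoter elements called the X and Y boxes and switches these genes on, constitutively in dendritic cells and B cells and after interferon gamma in many other cells.

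The promoters of 6 members held a Y-box sequence, and the stretches that contain it are shown because they are the known docking site of the coactivator complex. They come from RefSeq on GRCm38.p6, in windows from 250 bases before to 50 bases after a gene start, and are written 5′ to 3′ on the gene's strand. Capitals mark the Y-box core TGATTGG and, where present 15 to 40 bases before it, the letters GNAAC, a core of the X box.
H2-Aa, minus strand, chr17:34287864-34287918: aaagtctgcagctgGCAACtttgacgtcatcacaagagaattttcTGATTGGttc
H2-Eb1, plus strand, chr17:34305761-34305815: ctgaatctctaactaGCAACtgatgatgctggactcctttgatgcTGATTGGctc
H2-Oa, plus strand, chr17:34092289-34092343: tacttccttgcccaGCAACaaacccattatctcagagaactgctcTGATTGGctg
H2-Ob, plus strand, chr17:34238801-34238855: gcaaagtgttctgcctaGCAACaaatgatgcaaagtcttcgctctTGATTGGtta
H2-DMb1, plus strand, chr17:34153083-34153137: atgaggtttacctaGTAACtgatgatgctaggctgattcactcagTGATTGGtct
H2-DMb2, plus strand, chr17:34145112-34145166: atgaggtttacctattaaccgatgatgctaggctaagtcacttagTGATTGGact

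In these 6 genes the Y-box core began 45 to 92 bases before the RefSeq gene start that defined the window. Gene starts in GENCODE M21 differ for some of them. The stretches of H2-DMb1 and H2-DMb2 lie after their GENCODE starts (34153072 and 34143307), so the distances hold for the RefSeq starts only. The X-box letters lay 23 to 26 bases before it in H2-Aa, H2-Eb1, H2-Oa, H2-Ob and H2-DMb1. The stretches of H2-DMb1 and H2-DMb2 differed at 6 of 55 bases. Searched on both strands, TGATTGG occurred in 7.82% of all 32851 promoter windows, GNAAC in 84.8%, and the pair 15 to 40 bases apart in 0.715%. Neither window of H2-DMa held TGATTGG. H2-Ab1, Cd74 and Ciita had no entry. The letters were chosen after the sequences were seen, and a match describes the sequence only.

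In GENCODE M21 on GRCm38, 8 members lie on chromosome 17 between 34092340 (the start of H2-Oa) and 34316674 (the end of H2-Eb1), on the plus strand except H2-Aa. Cd74 lies on chromosome 18 from 60803848 to 60812652 and Ciita on chromosome 16 from 10480059 to 10528418. The deposited table names no build.

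Libraries held 25583642 to 38728143 estimated counts. Transcript levels of Ifnar1 itself overlapped between Ifnar1 -/- (36.2 to 133 CPM, counts scaled to library size) and Ifnar1 +/- AML (39.2 to 84.4 CPM), and counts summed over all exons cannot show a partial deletion. Ifnar1 -/- library 2 stood apart. It had 1721 CPM of the monocyte gene Ly6c2 and 761 CPM of the macrophage gene Adgre1, and the trimmed mean of M-values (TMM) scaling factor of that library was 0.681, against 0.889 to 1.13 in the other 10.

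Ebf1, the gene of an early B-lineage transcription factor, divided the 11 AMLs without regard to the labels. Ifnar1 -/- libraries 3 and 5 had 655 and 529.7 CPM, and Ifnar1 +/- libraries 3, 4 and 5 had 744, 644 and 645 CPM. These 5 are called Ebf1-rich below. The 6 Ebf1-poor libraries had 0.0308, 0.0515 and 0.0368 CPM (Ifnar1 -/- libraries 1, 2 and 4) and 1.37, 8.71 and 0.389 CPM (Ifnar1 +/- libraries 1, 2 and 6). In the values by library below, the order within each class is that of this paragraph. The 2 classes are a description of measured levels, with a boundary at 100 CPM, and not groups of the study. Within the Ebf1-poor class, Ebf1 was lower in every Ifnar1 -/- library than in every Ifnar1 +/- library.

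Class II transcripts were present in every AML at very unequal levels. Per kilobase of the principal transcript, the median over 11 libraries was 119 CPM for Cd74, 51.7 for H2-Ab1, 40.2 for H2-Oa, 29.2 for H2-Ob, 24.1 for H2-DMa and 13.8 for H2-DMb1. It was lower for H2-Aa (4.50 CPM per kilobase), H2-Eb1 (2.22), H2-DMb2 (1.92) and Ciita (0.0654). The ranges of neighbours in this order overlapped throughout, so the order of neighbours is not firm. In bulk RNA, fewer cells of a type and less RNA per cell cannot be told apart.

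**Figure D1:**
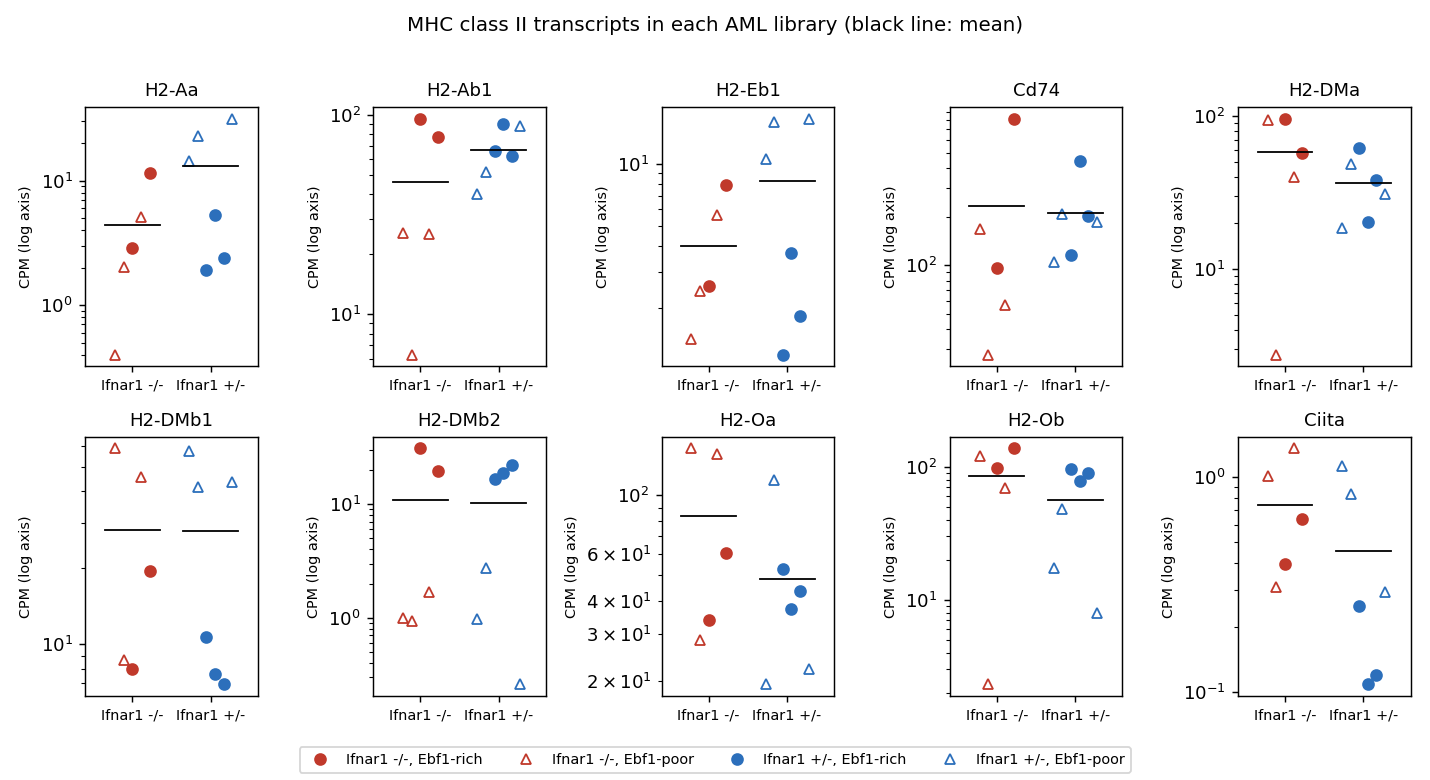
Level of each of the 10 class II genes (CPM, log axis) in Ifnar1 -/- (left) and Ifnar1 +/- (right) libraries, 1 symbol per library, filled circles Ebf1-rich, open triangles Ebf1-poor, black line the mean. For H2-DMb2 all 5 filled circles lie above all 6 triangles, and for H2-Aa the highest 3 symbols are Ebf1-poor Ifnar1 +/- libraries.

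None of the 10 genes separated the genotypes. In edgeR's quasi-likelihood test, 0 of 10 had a Benjamini-Hochberg adjusted p under 0.05, and so did 0 of all 14521 genes tested (0%). At an unadjusted p under 0.05 the count was 0 of 10, where 1.99% of all genes passed. The genotypes overlapped for every member, and 0.124% of all genes did not overlap. Of the 10, 7 had positive and 3 had negative log2 fold changes (Ifnar1 -/- over Ifnar1 +/-), with a median of 0.11 against -0.01 over all genes. The adjusted p was 0.9998 for each of the 10 genes in edgeR, so none is called higher or lower in the comparison of all libraries.

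The classical chain genes had negative estimates. H2-Aa, the alpha chain of I-A, had 2.89 and 11.6 CPM in Ebf1-rich Ifnar1 -/- libraries 3 and 5 and 0.401, 2.01 and 5.08 CPM in Ebf1-poor Ifnar1 -/- libraries 1, 2 and 4. In Ifnar1 +/- AML it had 1.90, 5.30 and 2.41 CPM in the Ebf1-rich libraries 3, 4 and 5 and 14.4, 22.6 and 31.3 CPM in the Ebf1-poor libraries 1, 2 and 6. The 3 highest values thus all came from Ebf1-poor Ifnar1 +/- AML, while the Ebf1-rich libraries of both genotypes spanned 1.90 to 11.6 CPM. Ifnar1 -/- AML averaged 4.39 ± 4.36 CPM (SD, n = 5) against 13.0 ± 12.04 CPM for Ifnar1 +/- AML (SD, n = 6), and the log2 fold change was -1.56 (SE 0.92). Leaving out single libraries moved it between -2.32 (without Ifnar1 -/- library 5) and -1.09 (without Ifnar1 +/- library 6).

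H2-Eb1, the beta chain of I-E, followed H2-Aa library by library. Its levels were 2.54 and 7.89 CPM in Ebf1-rich and 1.42, 2.42 and 5.67 CPM in Ebf1-poor Ifnar1 -/- libraries. The Ifnar1 +/- libraries had 1.19, 3.70 and 1.83 CPM (Ebf1-rich) and 10.6, 15.9 and 16.5 CPM (Ebf1-poor). Over the 11 libraries, log2 CPM of H2-Eb1 and H2-Aa had a Pearson r of 0.94 and a Spearman rho of 0.97, the highest Pearson r of the 45 pairs among the 10 genes. The genotype estimate was -1.05 (SE 0.75).

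H2-Ab1, the beta chain that pairs with the H2-Aa product, did not follow its partner. It had 95.7 and 77.4 CPM in Ebf1-rich and 25.5, 6.28 and 25.4 CPM in Ebf1-poor Ifnar1 -/- libraries. In Ifnar1 +/- AML it had 65.7, 89.7 and 62.6 CPM in the Ebf1-rich and 40.4, 51.7 and 88.3 CPM in the Ebf1-poor libraries. High H2-Ab1 therefore occurred in Ebf1-rich libraries with little H2-Aa. Its Pearson r with H2-Aa was 0.39. Ifnar1 -/- AML averaged 46.1 ± 38.3 CPM (SD, n = 5) against 66.4 ± 19.7 CPM for Ifnar1 +/- AML (SD, n = 6), and the estimate was -0.53 (SE 0.56). It was -0.97 without Ifnar1 -/- library 3 and -0.24 without Ifnar1 -/- library 2.

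The ratio of the 2 I-A chains was far from constant. Per kilobase, H2-Ab1 exceeded H2-Aa in all 11 libraries. The ratio was 30.8 and 6.21 in Ebf1-rich and 59.2, 2.91 and 4.66 in Ebf1-poor Ifnar1 -/- libraries, and 32.1, 15.8 and 24.2 in Ebf1-rich and 2.61, 2.12 and 2.63 in Ebf1-poor Ifnar1 +/- libraries. The highest ratio, in Ifnar1 -/- library 1, rested on 13 counts of H2-Aa beside 827 of H2-Ab1. No 50-base word of either transcript occurred in a transcript of another gene, so shared sequence of that length does not enter this ratio.

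**Figure D2:**
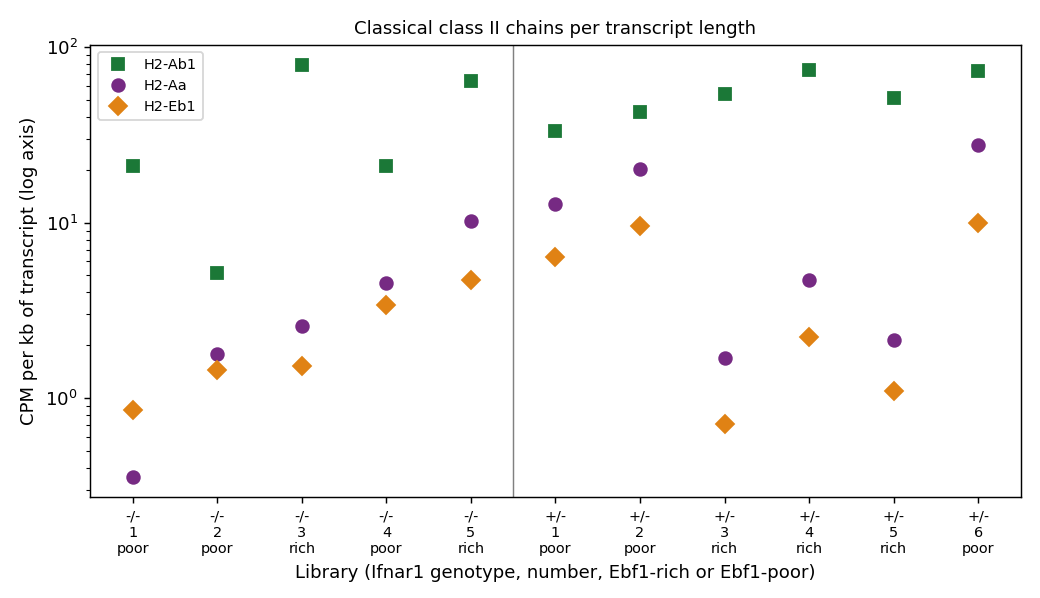
Level per kilobase of transcript (CPM per kb, log axis) of H2-Ab1, H2-Aa and H2-Eb1 in each library, Ifnar1 -/- left of the line and Ifnar1 +/- right of it. H2-Ab1 is the highest of the 3 everywhere, and its distance to H2-Aa is smallest in Ifnar1 +/- libraries 1, 2 and 6, with ratios of 2.61, 2.12 and 2.63.

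Of further class II chain genes, the table held H2-Eb2 and H2-Ea-ps, the pseudogene form of the I-E alpha chain gene, and neither passed the filter. H2-Ea-ps had 0 counts in 10 libraries, which allows up to 0.0723 to 0.155 CPM per library, and 0.128 CPM in Ifnar1 -/- library 5. H2-Eb2 had 0.120 to 1.43 CPM in the Ebf1-rich and 0 to 0.0667 CPM in the Ebf1-poor libraries.

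Cd74, whose product chaperones class II chains, had the highest median of the members in CPM per kilobase and varied 29.2-fold, or 14.4-fold without Ifnar1 -/- library 2. Ebf1-rich Ifnar1 -/- libraries 3 and 5 had 96.6 and 812 CPM, and the Ebf1-poor libraries 1, 2 and 4 had 168, 27.8 and 56.3 CPM. The Ifnar1 +/- libraries had 115, 444 and 202 CPM (Ebf1-rich) and 105, 208 and 185 CPM (Ebf1-poor). A single library, Ifnar1 -/- library 5, held the highest value, with the 2 genotypes overlapping across the rest. Ifnar1 -/- AML averaged 232 ± 328 CPM (SD, n = 5) against 209.8 ± 123 CPM for Ifnar1 +/- AML (SD, n = 6). The log2 fold change of 0.15 (SE 0.78) changed sign to -1.27 without Ifnar1 -/- library 5 (edgeR adjusted p = 0.978).

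H2-DMb1 and H2-DMb2 encode beta chains of the editor H2-DM. H2-DMb2 had 31.2 and 19.6 CPM in Ebf1-rich and 0.986, 0.927 and 1.69 CPM in Ebf1-poor Ifnar1 -/- libraries, and 16.6, 18.8 and 22.4 CPM in Ebf1-rich and 0.965, 2.74 and 0.259 CPM in Ebf1-poor Ifnar1 +/- libraries. It was the only member whose 2 Ebf1 classes did not overlap. That is 1 of 10 with higher levels in the Ebf1-rich class, where 12.1% of all genes lay so, and 0 of 10 with lower levels, where 9% of all genes did. The share of members is thus near that of all genes.

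H2-DMb1 was arranged the other way, with 1 exception. It had 8.01 and 19.4 CPM in Ebf1-rich and 58.9, 8.65 and 45.7 CPM in Ebf1-poor Ifnar1 -/- libraries, and 10.7, 7.66 and 6.96 CPM in Ebf1-rich and 57.3, 41.5 and 43.3 CPM in Ebf1-poor Ifnar1 +/- libraries. The exception was Ifnar1 -/- library 2, with 8.65 CPM. H2-DMb2 made up 50.3% to 79.6% of the counts of both genes in the Ebf1-rich and 0.627% to 9.49% in the Ebf1-poor libraries, so this share did not overlap between the classes. In Ebf1-rich Ifnar1 -/- library 5 the 2 genes were about equal. Their Pearson r over 11 libraries was -0.73. It spans both Ebf1 classes, so the difference between the classes enters it, and it does not describe a relation within a class.

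**Figure D3:**
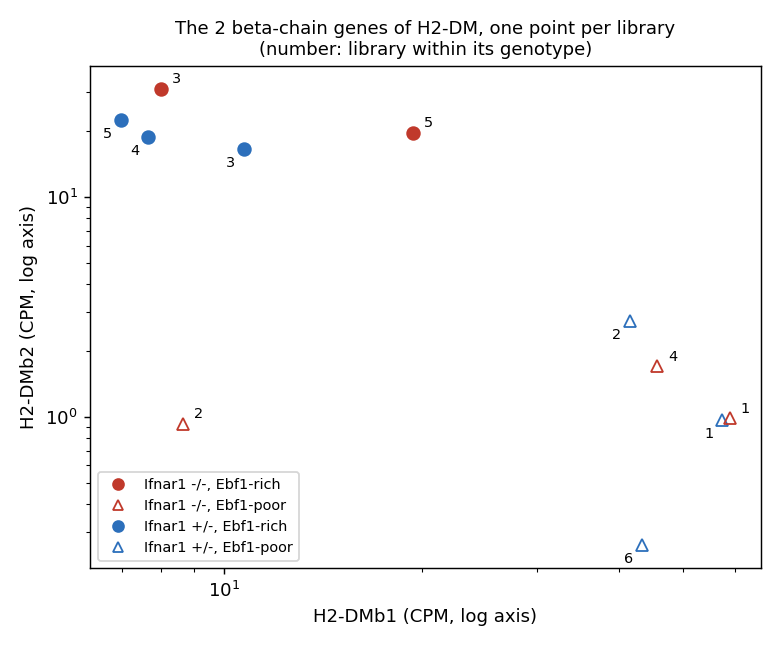
H2-DMb2 against H2-DMb1 (CPM, both axes log), 1 symbol per library, the number naming the library within its genotype. The 5 Ebf1-rich libraries lie at 16.6 to 31.2 CPM of H2-DMb2, and 5 of the 6 Ebf1-poor libraries lie at 41.5 to 58.9 CPM of H2-DMb1, while Ifnar1 -/- library 2 is low in both.

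The 2 genes are near-identical neighbours, and their counts were estimated rather than whole. Of the 50-base words of the H2-DMb1 transcript, 27.2% occurred in H2-DMb2, and 26.8% of those of H2-DMb2 occurred in H2-DMb1. How the deposited counts divided such reads is not given in the sources used here, so the single values are uncertain, and the sum of both is given beside them. The sum was 9.58 to 59.9 CPM in Ifnar1 -/- (from 39.0 CPM without library 2) and 26.4 to 58.3 CPM in Ifnar1 +/- libraries, and the estimate for it was 0.03 on the log2 scale (SE 0.40). For the single genes the estimates were 0.01 (SE 0.73) for H2-DMb1 and 0.08 (SE 1.22) for H2-DMb2, and leaving out single libraries turned the sign of each in 5 of 11 cases.

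H2-DMa, the alpha chain of the editor, did not follow the Ebf1 classes. It had 95.8 and 57.4 CPM in Ebf1-rich and 93.7, 2.78 and 39.9 CPM in Ebf1-poor Ifnar1 -/- libraries, and 62.2, 20.3 and 38.2 CPM in Ebf1-rich and 18.5, 48.4 and 31.1 CPM in Ebf1-poor Ifnar1 +/- libraries. The low value belonged to Ifnar1 -/- library 2. The log2 fold change was 0.67 (SE 0.65) with that library and 0.98 without it, and 0.41 without Ifnar1 -/- library 3. Without library 2 it still did not pass over all genes (edgeR adjusted p = 0.9999).

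The inhibitor H2-O is built from the chains of H2-Oa and H2-Ob. H2-Oa had 33.8 and 60.6 CPM in Ebf1-rich and 150.3, 28.6 and 143 CPM in Ebf1-poor Ifnar1 -/- libraries, and 53.0, 37.5 and 43.8 CPM in Ebf1-rich and 19.5, 115 and 22.1 CPM in Ebf1-poor Ifnar1 +/- libraries. The Ebf1-rich libraries of both genotypes spanned a narrow range, and both the highest and the lowest values were Ebf1-poor. The log2 fold change was 0.78 (SE 0.57), 1.25 without Ifnar1 +/- library 2 and 0.46 without Ifnar1 -/- library 1. Of the 50-base words of H2-Oa, 21.7% occurred in the overlapping gene BC051537, and whether counting used strand is not given, so reads of the 2 genes may have been mixed.

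H2-Ob had 96.9 and 137 CPM in Ebf1-rich and 121, 2.32 and 68.9 CPM in Ebf1-poor Ifnar1 -/- libraries, and 96.04, 78.0 and 90.1 CPM in Ebf1-rich and 17.3, 48.0 and 7.94 CPM in Ebf1-poor Ifnar1 +/- libraries. It was high in all 5 Ebf1-rich libraries and varied most in the Ebf1-poor class. Its closest partner among the members was H2-DMa (Pearson r = 0.84 over 11 libraries). The log2 fold change was 0.60 (SE 0.83), 0.92 without Ifnar1 -/- library 2 and 0.36 without Ifnar1 -/- library 5.

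Ciita, the coactivator gene, was barely detected. It had 0.393 and 0.638 CPM in Ebf1-rich and 1.02, 0.309 and 1.36 CPM in Ebf1-poor Ifnar1 -/- libraries, and 0.252, 0.109 and 0.120 CPM in Ebf1-rich and 1.13, 0.834 and 0.292 CPM in Ebf1-poor Ifnar1 +/- libraries. These values stand for 3 to 37 counts per library, so differences among them carry a large counting error. The log2 fold change was 0.71 (SE 0.68), 1.21 without Ifnar1 +/- library 1 and 0.38 without Ifnar1 -/- library 4. Across libraries, Ciita had a Pearson r of 0.82 with H2-DMb1 but of 0.11 with H2-Aa and -0.31 with H2-Ab1.

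Within the 6 Ebf1-poor libraries, the 3 classical chain genes were lower in every Ifnar1 -/- than in every Ifnar1 +/- library. H2-Aa had 0.401 to 5.08 CPM in Ifnar1 -/- against 14.4 to 31.3 CPM in Ifnar1 +/- AML, H2-Eb1 1.42 to 5.67 against 10.6 to 16.5 CPM, and H2-Ab1 6.28 to 25.5 against 40.4 to 88.3 CPM. These are 3 of 10 members, where 3.93% of all genes were lower without overlap. The other 7 members overlapped, and 3.43% of all genes were higher without overlap.

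A fit with terms for genotype, Ebf1 class and their interaction, added after the values were seen, gave log2 fold changes within the Ebf1-poor class of -3.19 for H2-Aa (SE 0.91), -2.18 for H2-Eb1 (SE 0.67) and -1.66 for H2-Ab1 (SE 0.51). Each had an edgeR adjusted p of 0.826, so none passed over all genes, and no gene of the table did (0%). At an unadjusted p under 0.05, the 3 chain genes were lower and 0 of 10 members higher, where 5.81% of all genes passed in either direction and 3.04% were lower. Since the genotypes did not overlap for these 3 genes, leaving out any 1 of the 6 libraries could not turn the sign. The size moved, with H2-Aa between -4.26 (without Ifnar1 -/- library 4) and -2.68 (without Ifnar1 -/- library 1). Without Ifnar1 -/- library 2, H2-Aa was at -3.06, H2-Eb1 at -2.02 and H2-Ab1 at -1.26. Cd74 had an estimate of -0.98 (SE 0.86), and H2-Oa and H2-Ob had 1.04 (SE 0.77) and 1.39 (SE 1.04). Without Ifnar1 +/- library 2, H2-Oa was at 2.37 and H2-Ob at 2.34, while H2-Oa was at 0.65 without Ifnar1 +/- library 1 and H2-Ob at 0.55 without Ifnar1 -/- library 1. Cd74 ran from -1.98 (without Ifnar1 -/- library 1) to -0.59 (without Ifnar1 -/- library 2). With 3 libraries against 3, an exact permutation test could not go below p = 0.1.

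Within the 5 Ebf1-rich libraries, H2-Aa and H2-Eb1 had estimates of the other sign, 1.18 (SE 0.92) and 1.22 (SE 0.71), and H2-Ab1 had 0.25 (SE 0.55). The genotypes did not overlap for Ciita and H2-Ob, 2 of 10 members, where 16.3% of all genes did not overlap with 2 libraries against 3. At an unadjusted p under 0.05 the count was 0 of 10, where 1.34% of all genes passed and 0.413% were lower. The difference between the classes was tested as the interaction. It was -4.37 for H2-Aa (SE 1.28), -3.39 for H2-Eb1 (SE 0.97) and -1.91 for H2-Ab1 (SE 0.74), with an edgeR adjusted p of 0.9999 for each. These 3 of 10 had an unadjusted p under 0.05, where 2.86% of all genes did and 1.79% with a negative term. No gene passed the interaction test (0%), and the genotype effect is therefore not shown to differ between the classes.

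Some markers of other antigen-presenting cells were lower in the same libraries. Of 12 monocyte and macrophage markers, 5 (Mertk, C1qa, C1qb, C1qc and Cx3cr1) were lower without overlap in Ebf1-poor Ifnar1 -/- than in Ebf1-poor Ifnar1 +/- libraries, where 3.93% of all genes were. Mertk rested on 21, 6 and 10 counts against 31, 28 and 78. The other markers of this list overlapped. Adgre1 (761 CPM), Csf1r (274 CPM) and Ly6c2 (1721 CPM) were highest in Ifnar1 -/- library 2. Lyz2 (148 CPM) was highest in Ifnar1 +/- library 2, Cd68 (431 CPM) and Ccr2 (97.6 CPM) in Ifnar1 +/- library 1, and Fcgr1 (4.41 CPM) in Ifnar1 +/- library 6. C1qb, a complement gene of tissue macrophages, had 9.80, 9.79 and 17.4 CPM in the Ifnar1 -/- libraries 1, 2 and 4 and 34.7, 24.6 and 87.0 CPM in the Ifnar1 +/- libraries 1, 2 and 6. Its log2 fold change there was -1.99 (SE 0.94, edgeR adjusted p = 0.826). The summed level of the 12 markers was 89.0 to 2899 CPM in Ebf1-poor Ifnar1 -/- libraries and 402 to 672 CPM in Ebf1-poor Ifnar1 +/- libraries, the highest being Ifnar1 -/- library 2. The other 2 Ebf1-poor Ifnar1 -/- libraries, 1 and 4, had 89.0 and 152 CPM, below all 3 Ebf1-poor Ifnar1 +/- libraries.

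Of 10 markers of conventional dendritic cells, 3 (Zbtb46, Ccr7 and Cd83) were likewise lower without overlap, beside the same 3.93% of all genes, and the sum was 23.3 to 264 CPM in Ebf1-poor Ifnar1 -/- and 228 to 529 CPM in Ebf1-poor Ifnar1 +/- libraries. Zbtb46, a defining transcription factor gene of these cells, had at most 0.699 CPM in Ebf1-poor Ifnar1 -/- libraries and 2.25, 0.801 and 7.001 CPM in Ifnar1 +/- libraries 1, 2 and 6. Its counts were 17, 13 and 19 against 56, 24 and 216, and those of Cd83 were 11, 7 and 3 against 19, 34 and 32. Ccr7 rested on 3, 0 and 1 counts against 4, 9 and 36, and had 4.12 to 18.7 CPM in the Ebf1-rich libraries. The other markers overlapped. Among them, Batf3 (7.26 CPM) and Xcr1 (0.618 CPM) were highest in Ifnar1 -/- library 2, and Fscn1 (0.617 CPM) in Ifnar1 -/- library 1. Itgax (8.21 CPM) and Clec10a (524 CPM) were highest in Ifnar1 +/- libraries 2 and 1. Clec10a, a lectin gene also found on macrophages, made up most of the sum in the Ebf1-poor libraries except Ifnar1 -/- library 2, where it had 6.44 CPM of 23.3 CPM. Cd209a and Clec9a were at or near 0 in every library. Over all 11 libraries the 12 monocyte and macrophage markers summed to 89.0 to 2899 CPM in Ifnar1 -/- (at most 166 CPM without library 2) and 28.5 to 672 CPM in Ifnar1 +/- AML. Of the markers in these lists, 0 passed the genotype test. The part of such cells in the class II values was not tested.

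Of 8 markers of plasmacytoid dendritic cells, 1 (Ly6d) was lower without overlap in the Ebf1-poor class, again beside 3.93% of all genes, and Siglech, a defining surface receptor gene, and Klk1 had 0 counts in all libraries. The sum was 169.8 to 620.3 CPM in Ifnar1 -/- and 176 to 369 CPM in Ifnar1 +/- AML. Tcf4 was the largest term except in Ifnar1 -/- library 3, where Ly6d was larger. B-lineage markers summed to 5923 to 9360 CPM in the Ebf1-rich and 12.5 to 126 CPM in the Ebf1-poor libraries. Those of mature B cells summed to 20.3 to 82.95 CPM in the Ebf1-rich libraries, mostly Ighd, and reached at most 0.845 CPM in the others. T cell markers summed to 10.3 to 184 CPM in Ifnar1 -/- and 2.47 to 291 CPM in Ifnar1 +/- AML, with Trac at 0.436 to 289 CPM and Cd3e at most 0.357 CPM. Myeloblast markers summed to 24.4 to 382 CPM in Ifnar1 -/- and 43.3 to 984 CPM in Ifnar1 +/- AML. Of these 6 markers, 2 (Elane and Ctsg) were lower without overlap in Ebf1-poor Ifnar1 -/- AML, beside 3.93% of all genes. The gap was narrow for Elane, at most 1.44 CPM in Ifnar1 -/- and at least 1.53 CPM in Ifnar1 +/- libraries there.

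Each of the 3 Ebf1-poor Ifnar1 -/- libraries had 1 count of Ebf1, so their order in Ebf1 is not measured, and no correlation with Ebf1 is given in that class. Since Ebf1 also separated the genotypes there, a relation to Ebf1 and one to genotype cannot be told apart. Over all 11 libraries none is given either, because they fall into 2 clusters of Ebf1.

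**Figure D4:**
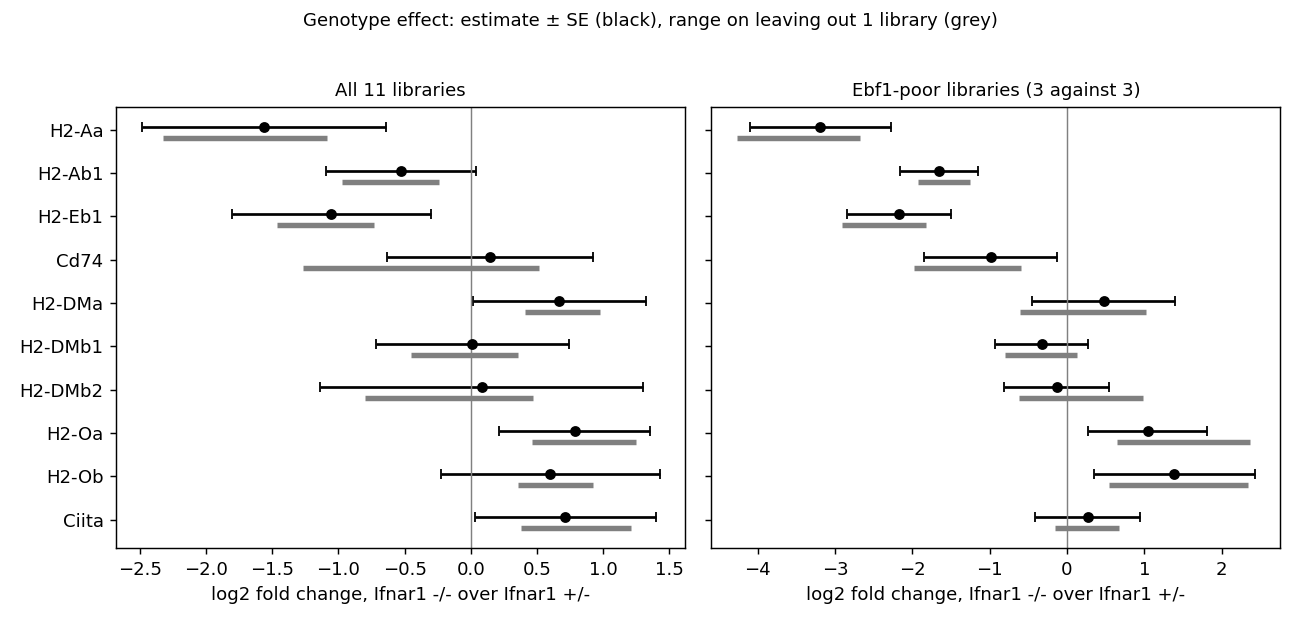
Log2 fold change of Ifnar1 -/- over Ifnar1 +/- AML for each member, in all 11 libraries (left) and within the Ebf1-poor libraries (right); black points and bars are the estimate ± SE, and grey bars the range on leaving out 1 library. The 3 classical chain genes lie at -3.19, -1.66 and -2.18 in the right panel, and none passed the test over all genes in either panel.

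Genes that act around the class II molecules were followed as fixed lists. Of 14 regulators of class II promoters, 0 passed in either direction, 5 had positive and 9 negative estimates, and the median was -0.10. Rfxank, a subunit of the X-box factor RFX, averaged 38.2 ± 12.1 CPM in Ifnar1 -/- AML (SD, n = 5) against 27.8 ± 2.89 CPM in Ifnar1 +/- AML (SD, n = 6). Irf1, which carries the interferon gamma signal to Ciita, averaged 53.8 ± 13.7 CPM in Ifnar1 -/- AML (SD, n = 5) against 42.8 ± 9.91 CPM in Ifnar1 +/- AML (SD, n = 6). Spi1, the gene of PU.1, had 507 CPM in Ifnar1 -/- library 2, which lay above the other Ifnar1 -/- libraries, and 26.6 to 89.3 CPM in Ifnar1 +/- AML. Irf8, a lymphoid and myeloid transcription factor gene, had 154 to 262 CPM in the Ebf1-rich and 0.662 to 7.36 CPM in the Ebf1-poor libraries. Of all genes, 12.1% were likewise higher without overlap in the Ebf1-rich class. Within the Ebf1-poor class, Irf8 was lower in Ifnar1 -/- (0.662 to 1.39 CPM) than in Ifnar1 +/- libraries (1.73 to 7.36 CPM). So was Pax5 (at most 2 counts, against 3 to 32 counts), and Rfxank was higher (30.2 to 54.2 against 27.1 to 28.8 CPM). The other regulators overlapped there, beside 3.93% of all genes lower and 3.43% higher without overlap.

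Of 8 genes of endosomal processing, 0 passed, 5 had positive and 3 negative estimates, and the median was 0.10. The protease gene Ctsh alone had an unadjusted p under 0.05 (edgeR adjusted p = 0.9998), and its 1087 CPM in Ifnar1 -/- library 2 stood against 1.69 to 43.0 CPM in the others. Sppl2a, whose protease clears the last stub of Cd74, averaged 74.9 ± 8.47 CPM in Ifnar1 -/- AML (SD, n = 5) against 105 ± 33.6 CPM in Ifnar1 +/- AML (SD, n = 6). Ctss, which trims Cd74 in antigen-presenting cells, averaged 52.8 ± 43.7 CPM in Ifnar1 -/- AML (SD, n = 5) against 89.4 ± 45.8 CPM in Ifnar1 +/- AML (SD, n = 6). Within the Ebf1-poor class, Ctss had 9.27 to 41.4 CPM in Ifnar1 -/- against 42.5 to 170 CPM in Ifnar1 +/- libraries. Sppl2a (72.8 to 88.7 against 97.4 to 151 CPM) and Lgmn (6.13 to 12.3 against 15.4 to 84.5 CPM) were also lower there without overlap. The rest of this list overlapped there, and 3.93% of all genes were lower without overlap. The lysosomal protease gene Ctsb averaged 399.8 ± 199 CPM in Ifnar1 -/- AML (SD, n = 5) against 587 ± 292 CPM in Ifnar1 +/- AML (SD, n = 6). Ctsd, another such gene, lay lower in every Ebf1-rich library (158 to 297 CPM) than in every Ebf1-poor library (832 to 3174 CPM). Of all genes, 9% were likewise lower without overlap in the Ebf1-rich class.

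Of 7 genes of class II turnover and of surface partners, 0 passed, with 3 positive and 4 negative estimates and a median of -0.23. Cd80, a costimulatory ligand gene, had 31.3 CPM in Ifnar1 -/- library 2 and 0.201 to 3.50 CPM in the others. March1 and March8, whose ubiquitin ligases remove class II from the surface, both overlapped between genotypes. March1 spanned 0.147 to 20.2 CPM in Ifnar1 -/- and 0.545 to 4.31 CPM in Ifnar1 +/- AML, and March8 1.04 to 11.6 CPM in Ifnar1 -/- and 0.530 to 15.8 CPM in Ifnar1 +/- AML. Cd83, which protects surface class II, averaged 0.369 ± 0.334 CPM in Ifnar1 -/- AML (SD, n = 5) against 0.810 ± 0.523 CPM in Ifnar1 +/- AML (SD, n = 6). Lag3, the gene of a class II receptor, averaged 15.6 ± 24.6 CPM in Ifnar1 -/- AML (SD, n = 5) against 27.2 ± 29.0 CPM in Ifnar1 +/- AML (SD, n = 6).

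Of 5 other genes of the same chromosomal region, 0 passed, with 3 positive and 2 negative estimates and a median of 0.08. Tap2, a class I peptide transporter gene, averaged 382 ± 118 CPM in Ifnar1 -/- AML (SD, n = 5) against 265 ± 98.1 CPM in Ifnar1 +/- AML (SD, n = 6). The immunoproteasome gene Psmb8 averaged 413 ± 107 CPM in Ifnar1 -/- AML (SD, n = 5) against 362 ± 140.1 CPM in Ifnar1 +/- AML (SD, n = 6). The other transporter gene, Tap1, and Psmb8 were higher in every Ebf1-rich library (132 to 209 and 441 to 579 CPM) than in every Ebf1-poor library (37.6 to 128 and 153 to 369 CPM). So was Psmb9 (124 to 157 against 28.7 to 99.5 CPM), while Tap2 and Brd2 overlapped between the classes. Of all genes, 12.1% were higher without overlap in the Ebf1-rich class.

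The genes whose pattern was most like the class II genes were found by Pearson's r of log2 CPM with the mean of H2-Aa, H2-Ab1, H2-Eb1 and Cd74 over 11 libraries. The 8 highest were Clec4a1 (r = 0.88), Magee2 (0.85), Abcg2 (0.85), Aars (0.85), Fcmr (0.84), Cxcl16 (0.83), Pik3r3 (0.82) and Slc41a1 (0.82). They were picked as the highest among the 14521 genes tested, over only 11 libraries, so values of this size carry little weight, and none was tested. Among the genes of the mean, r ran from 0.22 (H2-Ab1 with H2-Eb1) to 0.94 (H2-Aa with H2-Eb1), so the mean is not a single shared pattern. Of these only Aars, a tRNA synthetase gene, was abundant, at 65.1 to 243 CPM. Clec4a1, the gene of a myeloid lectin, had 0.155 to 10.4 CPM.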

How the data were processed

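Estimated counts of reads per gene were deposited by the authors for 11 libraries, not scaled between libraries. Per the submitters' processing notes, bcl2fastq and DRAGEN were used, with no roles given. Build and annotation: not given in the sources used here. Of 55774 rows, 287 identical copies were dropped, and symbols were matched for 55141 of 55487 identifiers. Counts were rounded and tested with edgeR 4.0.16 (R 4.3.3; filterByExpr, TMM, robust quasi-likelihood F-test, two-sided, Benjamini-Hochberg over 14521 genes, threshold 0.05). SE is |log2 fold change| over the root of F. CPM are TMM-scaled, and log2 CPM used a prior count of 2. Lengths are those of the longest APPRIS principal transcript in GENCODE M21. The edgeR steps were tested on simulated data with 200 changed genes. The simulation gave every gene the same dispersion and no difference by Ebf1 class. It therefore checks the steps only and does not show their power in these libraries.

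Alternatives were DESeq2 1.42.0, limma 3.58.1 (voom with quality weights), DESeq2 size factors, 2 other filters, robust=FALSE, Ebf1 as a covariate, a replicate block and leaving out each library. The members and lists were chosen with earlier results of these data known. The Ebf1 classes, the interaction fit and the sum of H2-DMb1 and H2-DMb2 were added after seeing the data. Named genes are the 10 members, up to 4 genes per pathway list with the smallest p and 2 with the highest level, the 8 genes most like the class II mean, and cell type markers. Markers and pathway genes outside this rule (such as Mertk, Cx3cr1, C1qa, Zbtb46, Lgmn, Pax5 and Psmb9) were named after their values were seen. The labels do not state whether replicates are separate mice. The p-values therefore describe variation among these libraries, which may be technical. Intervals for 0 counts (3 counts) cover counting error only. Some genes of the lists are not reported here by name.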

Additional observations from a re-analysis of the deposited data

Results flagged for a closer look

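In 2 of 20 checks (10 genes in 2 genotypes), 1 library lay apart from the others of its genotype by Dixon's criterion on log2 CPM, which chance alone meets in about 1 of 20 groups. Both were Ifnar1 -/- library 2, the library with the highest Ly6c2. It had 2.78 CPM of H2-DMa, the alpha-chain gene of the peptide editor, and the next lowest Ifnar1 -/- library had 39.9 CPM. It had 2.32 CPM of H2-Ob, a chain of the editor's inhibitor, and the next lowest had 68.9 CPM. The log2 fold change of H2-Ob was 0.92 without that library, against 0.60 with it.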

How the results depend on the processing

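No member passed in any of the 19 alternatives over all libraries, or in the 7 within the Ebf1-poor class. DESeq2 called 3 genes in all, none a member, and the other alternatives called 0. At an unadjusted p under 0.05 the count of members was 0 in the main test, 3 in limma voom, 1 with Ebf1 as a covariate, and 0 to 2 on leaving out 1 library. H2-Aa, H2-Ab1, H2-DMa, H2-Oa and Ciita kept the sign of their log2 fold change under every alternative run over all libraries, where Ciita has no value under the filter of 5 CPM in 5 libraries, which removes it. The 3 members at an unadjusted p under 0.05 in limma voom were Ciita (2.004), H2-DMb1 (1.41) and H2-Oa (0.99), each with a limma adjusted p of 0.508. With Ebf1 as a covariate it was H2-DMb2, at 1.27 against 0.08 in the main test (edgeR adjusted p = 0.999 with the covariate), and H2-Ob was at 1.39. Estimates changed sign in limma voom for H2-Eb1 (0.16), Cd74 (-0.30) and H2-DMb2 (-1.55), and with Ebf1 as a covariate for H2-DMb1 (-0.33). The cause was not tested. On leaving out 1 library, log2 fold changes ran from -1.27 to 0.51 for Cd74, -0.45 to 0.35 for H2-DMb1 and -0.80 to 0.47 for H2-DMb2. Within the Ebf1-poor class they ran from -0.61 to 1.02 for H2-DMa, -0.80 to 0.13 for H2-DMb1, -0.62 to 0.98 for H2-DMb2 and -0.16 to 0.68 for Ciita, and the count at an unadjusted p under 0.05 was 3 or 4.

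With the replicate number as a replicate block (10 libraries), no member passed, 0 genes were called, and the estimates of H2-Aa, H2-Eb1, Cd74 and H2-DMb2 were -0.95, -0.27, -0.67 and -0.77, that of H2-Ab1 was -0.89, while that of H2-Ob was 9.3e-06. Over the 2000 most variable genes, same-numbered libraries had correlations of 0.52, 0.24, 0.62, -0.59 and 0.62, and 1 of 5 matched its own number best. The libraries numbered 4, at -0.59, were of different Ebf1 classes, and those of each other shared number were of the same class. The correlations thus show no pairing by number, but they cannot exclude one, since class differences enter them.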

Other observations

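The balance of inhibitor to editor transcripts varied between libraries. Per kilobase, H2-Oa over H2-DMa was 0.538 to 15.7 in Ifnar1 -/- and 1.09 to 3.61 in Ifnar1 +/- libraries, and the highest ratio was in Ifnar1 -/- library 2, which had little H2-DMa. Without that library the highest Ifnar1 -/- ratio was 5.47. Cd74 over H2-Ab1, per kilobase, was 0.868 to 9.02 in Ifnar1 -/- and 1.503 to 4.25 in Ifnar1 +/- libraries.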
